A study of Mus musculus with 102 samples.

Results

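The Toll-like receptors and co-receptors of microglia sorted from mouse lumbar spinal cord were examined in 10 genes. They were Tlr1, Tlr2, Tlr3, Tlr4, Tlr7, Tlr9 and Tlr13, and the co-receptor genes Cd14, Ly96 and Cd180. The 10 genes were chosen by symbol from the 18856 genes of the authors' normalized table and matched by gene ID to the 53715 genes of the raw count table, and all 10 passed the filter on low counts and were tested. ABC-imKO mice (KO) carry Abca1fl/fl and Abcg1fl/fl with Cx3cr1-CreERT2, an inducible Cre recombinase driven by a gene that other mononuclear phagocytes express too, and were compared with wild type (WT) mice. There were 6 groups. KO mice gave 3 samples after cisplatin and AIBP, 3 after cisplatin and saline, and 3 naive samples. WT mice gave 2 after cisplatin and AIBP (samples 7 and 9), 3 after cisplatin and saline, and 3 naive samples. Cisplatin, a platinum chemotherapy agent that causes painful neuropathy, went into the peritoneum on days 1 and 3. On day 7 saline or AIBP, an apolipoprotein A-I binding protein that promotes cholesterol efflux, was given intrathecally. For naive mice no day of cisplatin or of intrathecal injection was recorded, so each comparison with them also holds the intrathecal injection. How the Cre recombinase was induced, and in which groups, is not described here. The labels used here give no age, and whether a sample came from 1 animal or from several was not given.

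Toll-like receptors bind molecules of microbes and of damaged cells and signal through adaptors such as MyD88 to NF-kB and interferon regulatory factors. Tlr1, Tlr2 and Tlr4 encode receptors of the cell surface, and Tlr3, Tlr7, Tlr9 and Tlr13 encode receptors of endosomes that bind nucleic acids. CD14 and MD-2, the product of Ly96, present lipopolysaccharide to TLR4, whose signalling complexes assemble in cholesterol-rich membrane rafts. CD180 (RP105) resembles the outer part of TLR4, has no signalling domain of the Toll type, pairs with MD-1, the product of Ly86, and restrains TLR4 signalling in mouse myeloid cells. In the spinal cord, microglial TLR4 is known for its part in persistent pain states.

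The gene that passed the test was Cd180, and the partner of its protein, Ly86, moved the other way in WT mice, so the promoters of these genes are shown. Both are on chromosome 13. Each sequence runs 5' to 3' from 250 bases before to 50 bases after the RefSeq start, on the plus strand of GRCm38.p6, at chr13:102693308-102693607 for Cd180 and chr13:37345095-37345394 for Ly86. Motifs were searched on both strands: GGAAGT, a core bound by ETS factors such as PU.1, an NF-kB motif of GGGA and CC with any 4 bases between, and an interferon motif of GAAA and GAAA with any 2 bases between. Capitals mark the single match, GGAAGT on the reverse strand, 64 bases before the Cd180 start.
Cd180: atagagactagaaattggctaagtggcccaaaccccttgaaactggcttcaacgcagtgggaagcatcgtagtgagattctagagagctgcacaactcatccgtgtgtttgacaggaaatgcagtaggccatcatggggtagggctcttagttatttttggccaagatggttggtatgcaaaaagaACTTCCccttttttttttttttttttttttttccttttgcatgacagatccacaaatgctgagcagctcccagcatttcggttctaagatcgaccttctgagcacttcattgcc
Ly86: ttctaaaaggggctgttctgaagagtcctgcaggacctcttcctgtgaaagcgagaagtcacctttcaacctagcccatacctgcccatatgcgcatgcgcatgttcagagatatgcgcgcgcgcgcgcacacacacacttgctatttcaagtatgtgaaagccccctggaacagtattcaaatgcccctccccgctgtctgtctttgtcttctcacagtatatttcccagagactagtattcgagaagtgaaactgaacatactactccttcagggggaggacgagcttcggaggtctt
The Ly86 window held none of the motifs. Among 32851 promoters of this length, 23.8% held GGAAGT, 20.7% held the NF-kB motif and 3.44% the interferon motif. Of the 10 genes, the windows of 6 were searched. In these windows GGAAGT was also found for Tlr1, Tlr2 and Tlr9, the NF-kB motif for Tlr2 and Tlr3, and none of the motifs for Tlr13. A match is a string of letters and was not tested as a binding site.

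The 17 samples held 45.1 to 76.6 M counts each (median 63.1 M), summed over 3 technical replicates and 2 lanes. Summed levels of 12 markers of homeostatic microglia, in CPM (counts scaled to the size of the library), were 27057 to 35646 in samples labelled KO cisplatin AIBP, 21250 to 24967 in KO cisplatin saline, 42515 to 55105 in KO naive, 42930 to 45197 in WT cisplatin AIBP, 30244 to 38519 in WT cisplatin saline and 53860 to 61539 in WT naive. Summed levels of 10 monocyte markers were 239 to 1074 CPM in WT cisplatin saline against 5.42 to 63.0 in WT naive, and 787 to 1242 CPM in KO cisplatin saline against 19.1 to 29.6 in KO naive. The KO sum was carried by Fn1 (817 CPM on average) and Chil3 (99.7 CPM), while Ccr2, a monocyte chemokine receptor, was at 0.227 to 6.74 CPM in KO cisplatin saline against 0.305 to 1.97 CPM in KO naive. Fn1 made up most of the WT cisplatin saline sum too, at 236 to 874 CPM (558 CPM on average). Of the 10 monocyte markers, Fn1 alone passed as higher in KO and none in WT. WT cisplatin saline 5 and 6 stood apart, with Ccr2 at 95.3 and 62.8 CPM, against 0.324 CPM in WT cisplatin saline 4. Samples 5 and 6 also had summed levels of 9 border macrophage markers of 214 and 202 CPM, against 7.85 CPM in sample 4 and 0.196 to 5.22 CPM in WT naive. In KO these sums were 30.2 to 47.5 CPM in cisplatin saline and 10.2 to 12.1 CPM in naive. Of the 7 such markers tested, 1 passed as higher in WT (1.95% of all genes passed as higher) and none in KO. Gene-level counts do not measure the deletion: Abca1 was at 32.6 to 105 CPM in KO against 41.1 to 114 CPM in WT samples. Abcg1 was at 41.6 to 66.4 CPM in KO naive against 91.7 to 160 CPM in WT naive, with no overlap, and at 50.9 to 68.4 CPM in KO cisplatin saline against 42.7 to 65.7 CPM in WT cisplatin saline, which overlapped. Cx3cr1, the gene that drives the Cre recombinase in KO, is among the 12 microglia markers, so its levels are part of their sums. It was at 5250 to 7078 CPM in samples labelled KO cisplatin AIBP, above the 1718 to 2771 CPM in KO cisplatin saline and the 3397 to 4871 CPM in KO naive. It was at 7297 to 7902 CPM in WT cisplatin AIBP, 5531 to 7103 in WT cisplatin saline and 9349 to 10656 in WT naive, so the samples labelled KO cisplatin AIBP overlapped WT cisplatin saline, and they are named by their label throughout. In such bulk samples fewer cells of a type and less RNA per cell cannot be told apart.

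All 10 genes were detected in every sample, at levels that differed widely. Levels were compared between genes as CPM per kb of exon. In each of the 6 groups Cd14 stood first, Tlr2 the second, Tlr13 the third, Tlr4 the eighth, Tlr3 the ninth and Tlr9 the last, while Tlr7, Cd180, Ly96 and Tlr1 shared the places between. In WT naive microglia Cd14 was at 748 ± 95 CPM per kb (SD, n = 3), Tlr2 at 73.5 ± 17 and Tlr13 at 56.6 ± 1.4. Cd14 stood clear of Tlr2, whereas Tlr2 and Tlr13 overlapped. Tlr7 followed at 46 ± 8.4 CPM per kb, Cd180 at 40.3 ± 3.7 and Ly96 at 38.8 ± 5.4, and each of these overlapped its neighbour. Tlr1 at 23.4 ± 2.3 and Tlr4 at 21.6 ± 2.5 CPM per kb overlapped too, and lay below Ly96. Tlr3 at 10.8 ± 0.24 and Tlr9 at 4.68 ± 1.4 CPM per kb did not overlap each other or Tlr4. In KO naive microglia the order differed in Cd180, which at 25 CPM per kb lay below Ly96 at 43.2 with no overlap and overlapped Tlr1 at 23.1.

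**Figure D1:**
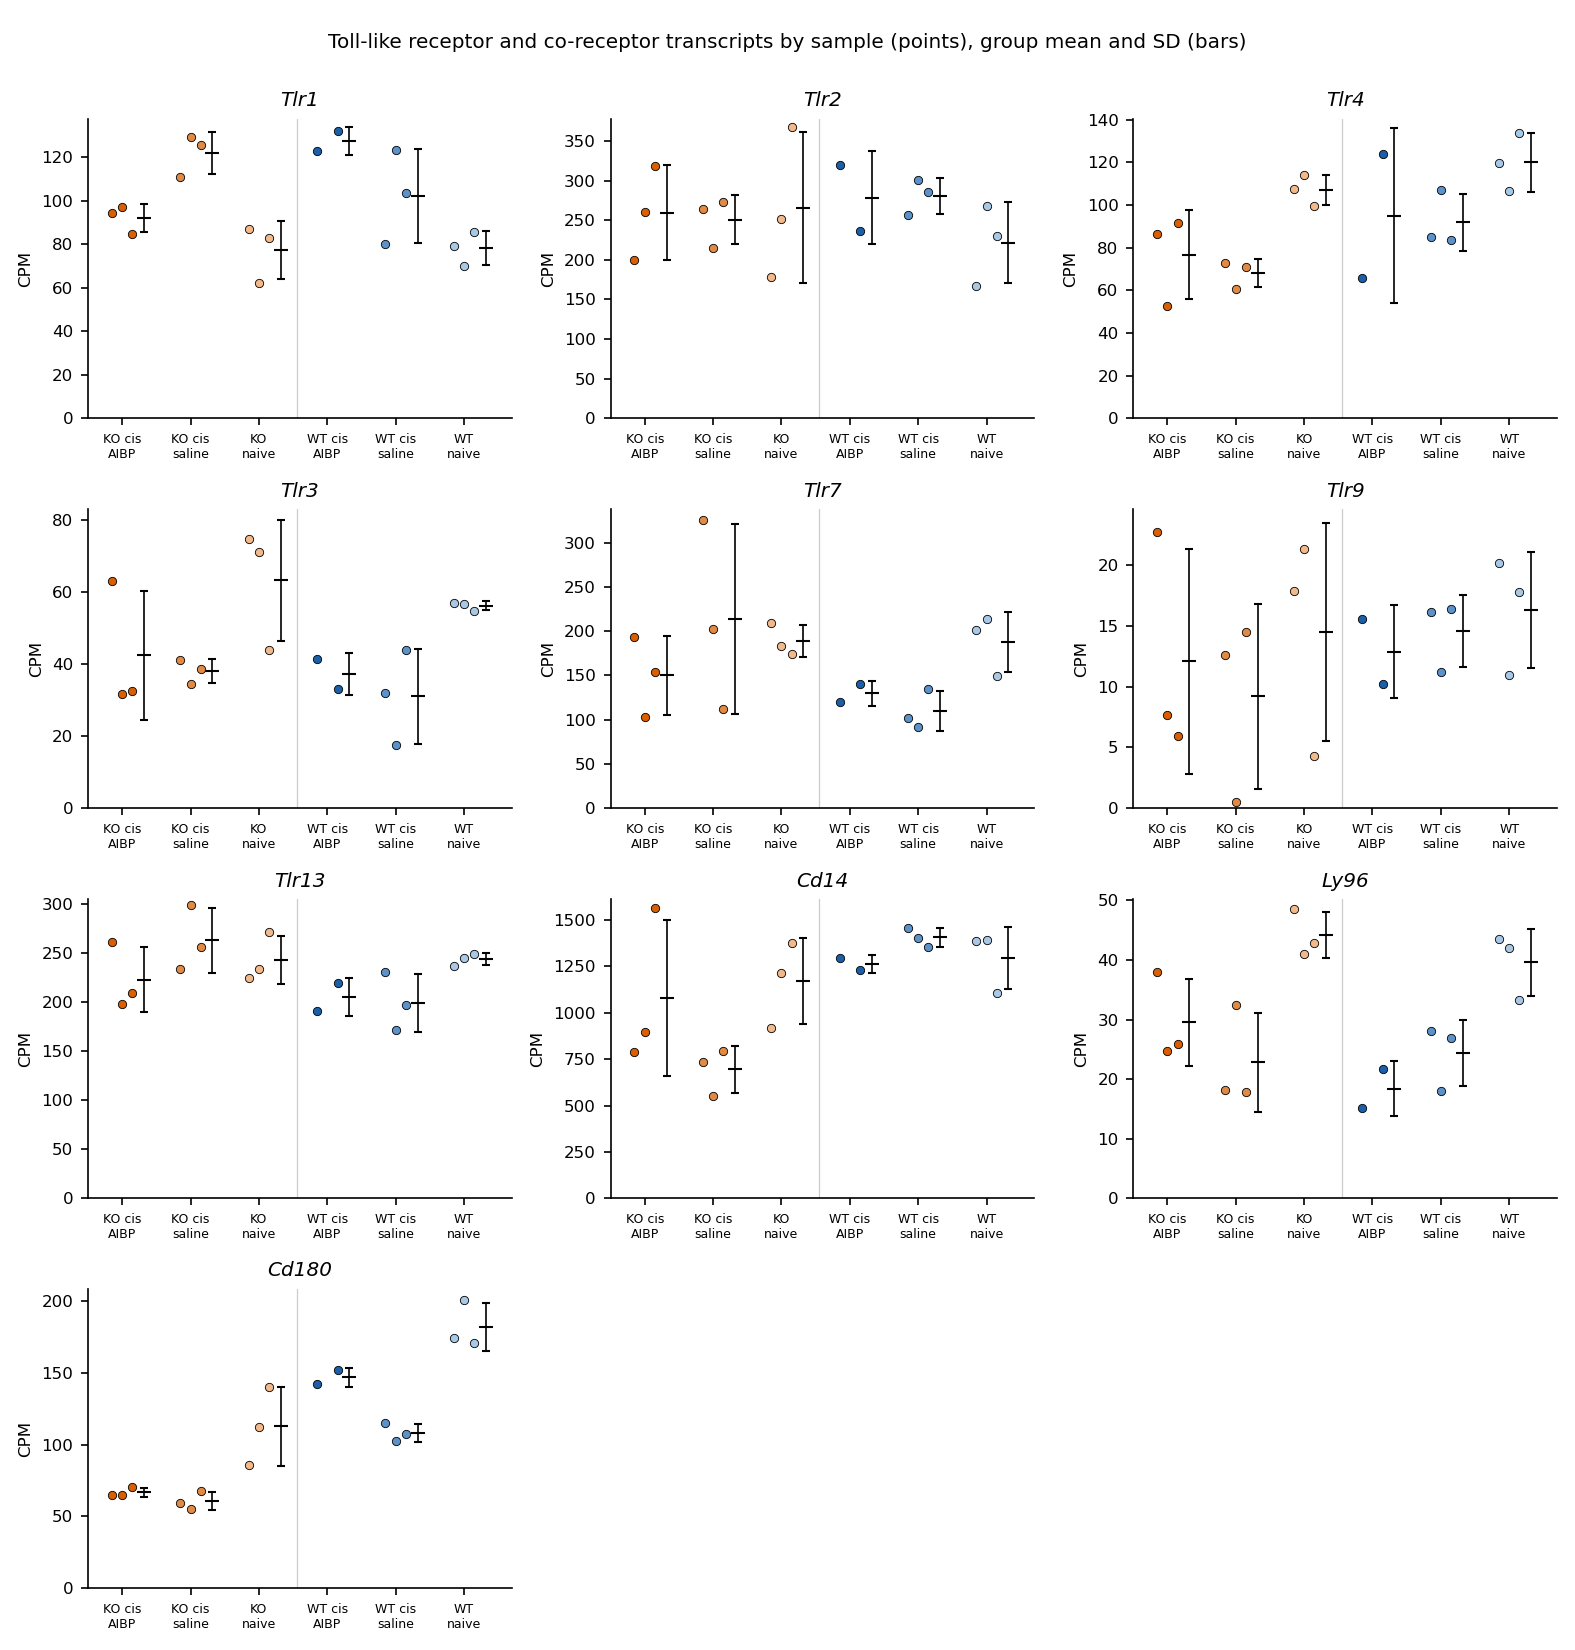
Level of each of the 10 genes (y axis, CPM, its own scale per panel) in the 17 numbered samples by group (x axis); points are samples and bars are group means and SD. Cd180 is lower in KO than in WT samples of each treatment, and Tlr9 spreads widely in the 3 KO groups.

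Cd180 fell after cisplatin in both genotypes. It was at 59.1, 55.1 and 67.7 CPM in KO cisplatin saline against 85.6, 112 and 140 CPM in KO naive, and at 115, 102 and 107 CPM in WT cisplatin saline against 174, 201 and 170 CPM in WT naive. Every cisplatin saline sample lay below every naive sample of its genotype. In KO the means were 60.6 ± 6.5 against 113 ± 27 CPM (SD, n = 3 each), a log2 fold change of -0.89 ± 0.17 (SE; 95% interval -1.26 to -0.53; adjusted p = 0.00834, edgeR). In WT they were 108 ± 6.5 against 182 ± 17 CPM, a log2 fold change of -0.75 ± 0.17 (95% interval -1.11 to -0.39; adjusted p = 0.0294, edgeR). The falls of the 2 genotypes differed by -0.14 ± 0.24 on the log2 scale (KO minus WT, 95% interval -0.65 to 0.37; adjusted p = 0.992), so neither a like nor an unlike fall was shown. Among all genes tested, 1.99% passed the test as lower in KO and 0.953% as lower in WT. The KO call was lost without KO cisplatin saline 5 (log2 fold change -0.83, adjusted p = 0.0515) and was kept without each other KO sample. The WT call was kept without WT cisplatin saline 4 and lost without any other 1 of the 6 WT samples. Without both WT cisplatin saline 5 and 6 the log2 fold change was -0.61 (adjusted p = 0.723), a fit in which the lone saline sample is assumed to vary like the other groups.

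After AIBP, Cd180 stood at 65.1, 64.6 and 70.4 CPM in samples labelled KO cisplatin AIBP and at 142 and 152 CPM in WT cisplatin AIBP. The KO values overlapped those of KO cisplatin saline and lay below all of KO naive, and both WT values lay above WT cisplatin saline and below WT naive. Against KO cisplatin saline the log2 fold change was 0.14 ± 0.17 (95% interval -0.23 to 0.50; adjusted p = 0.964). Against KO naive, Cd180 was lower by a log2 fold change of -0.76 ± 0.17 (66.7 ± 3.2 against 113 ± 27 CPM, n = 3 each; adjusted p = 0.0299, edgeR), where 0.870% of all genes passed as lower. That call held without KO naive 1 and was lost without KO naive 2 or 3 or without any 1 of the samples labelled KO cisplatin AIBP. In the same comparison 7 of the 12 homeostatic microglia markers passed as lower, and the monocyte sum was 284 to 801 CPM against 19.1 to 29.6 CPM in KO naive. In WT, AIBP against saline gave 0.44 ± 0.19 (147 ± 6.8 against 108 ± 6.5 CPM, n = 2 and 3; adjusted p = 0.996) and AIBP against naive gave -0.31 ± 0.19 (adjusted p = 0.466). The difference between the genotypes in the AIBP contrast, -0.30 ± 0.25 on the log2 scale (95% interval -0.85 to 0.24), did not pass the test (adjusted p = 0.963).

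In each treatment every KO sample had less Cd180 than every WT sample. The log2 fold change of KO against WT was -1.14 ± 0.19 after AIBP, -0.83 ± 0.17 after saline and -0.69 ± 0.17 in naive mice (95% intervals -1.54 to -0.74, -1.20 to -0.47 and -1.06 to -0.33). With edgeR none passed over the 20461 genes (adjusted p = 0.241, 0.154 and 0.712), although Cd180 ranked at place 2 after AIBP, 26 after saline and 31 in naive mice by p. DESeq2 called all 3 (adjusted p = 1.9e-06, 0.000175 and 0.00999), so the genotype difference depended on the tool. Of all genes tested, the share whose KO samples all lay below all WT samples was 11.4% after AIBP, 6.40% after saline and 4.14% in naive mice.

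The falls of Cd180 after cisplatin stood beside falls of other microglial genes. Of the 12 homeostatic microglia markers, 10 passed as lower in KO cisplatin saline against KO naive and 4 in WT cisplatin saline against WT naive, with the sums given above. CD180 is also a B-cell protein. Summed levels of 5 B-cell markers were 292 to 662 CPM in KO cisplatin saline against 787 to 1518 in KO naive, and 584 to 1021 CPM in WT cisplatin saline against 1261 to 1548 in WT naive. Of the 3 B-cell markers tested, Ighm passed as lower in KO (log2 fold change -1.46 ± 0.34, adjusted p = 0.0259) and none passed in WT, and Cd79b overlapped between saline and naive in both genotypes. Nearly all of the sum came from Ighm and Cd79b, while Ms4a1, Cd79a and Pax5, which define B cells, reached at most 0.659 CPM in any sample and Ms4a1 was at 0 in all. The part of the microglia, monocyte and border macrophage markers in the results on Cd180 and the other 9 genes was not tested. On the opposite strand, Mast4 shares 182 exon bases with Cd180, and its 3.65 to 49.4 CPM could not be told apart from Cd180 there if reads were counted without strand.

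**Figure D2:**
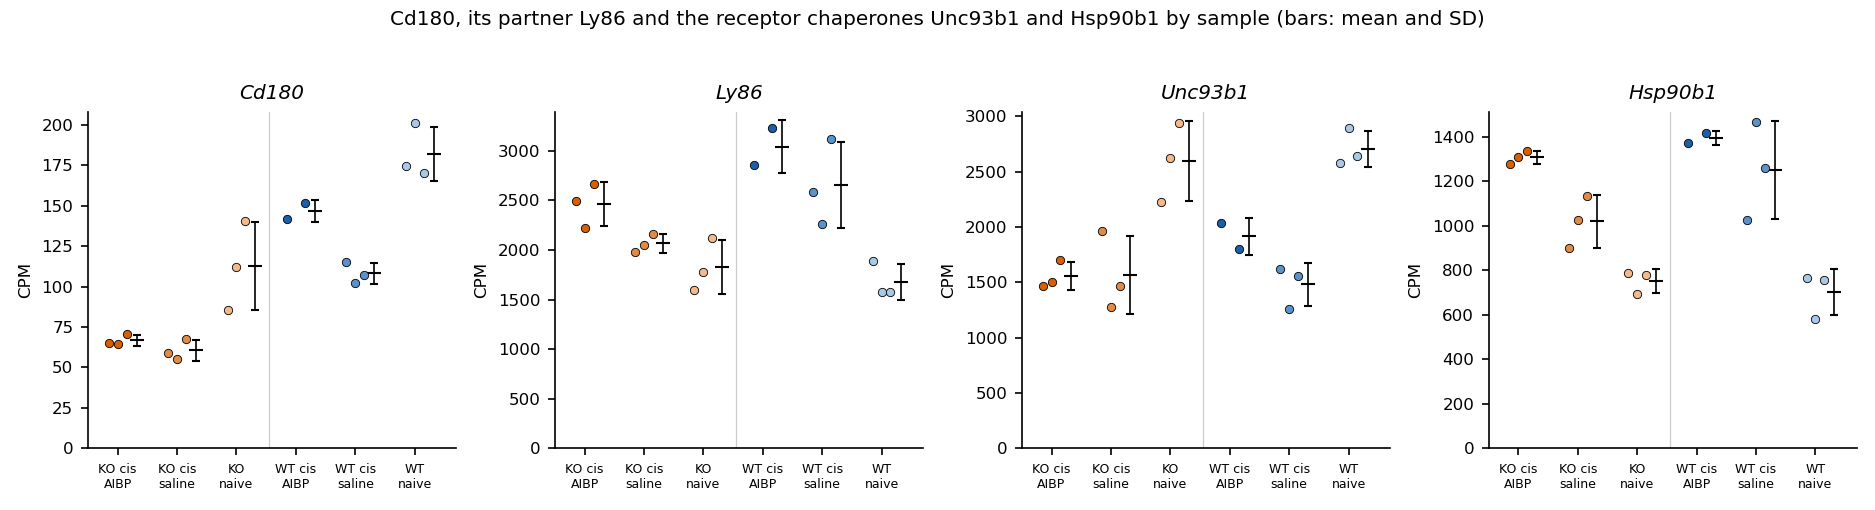
Levels (y axis, CPM) of Cd180, Ly86, Unc93b1 and Hsp90b1 in the 17 numbered samples by group (x axis); points are samples and bars are group means and SD. Cd180 and Unc93b1 are lower after cisplatin than in naive mice. Hsp90b1 is higher after cisplatin in both genotypes, and Ly86 is higher in WT, while its KO cisplatin saline samples overlap KO naive.

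Around the TLR4 complex, no other gene passed the test. Ly96 was at 18.2, 32.5 and 17.8 CPM in KO cisplatin saline against 48.5, 41 and 42.9 in KO naive, and at 28.1, 18.1 and 26.9 CPM in WT cisplatin saline against 43.5, 42 and 33.2 in WT naive. All saline samples lay below all naive samples of their genotype. The log2 fold changes were -0.95 ± 0.29 in KO (adjusted p = 0.0798) and -0.70 ± 0.28 in WT (adjusted p = 0.229). After AIBP, Ly96 was at 38, 24.7 and 25.9 CPM in samples labelled KO cisplatin AIBP and at 15.2 and 21.7 CPM in WT cisplatin AIBP, so all of these lay below naive. Against naive the log2 fold change was -0.58 ± 0.28 in KO (adjusted p = 0.320) and -1.10 ± 0.33 in WT (adjusted p = 0.126). DESeq2 called Ly96 lower in KO cisplatin saline (adjusted p = 0.0132) and in WT cisplatin AIBP against naive (adjusted p = 0.0181).

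Tlr4, the lipopolysaccharide receptor, was at 72.6, 60.5 and 70.9 CPM in KO cisplatin saline against 107, 114 and 99.5 in KO naive, and at 84.8, 107 and 83.6 CPM in WT cisplatin saline against 120, 106 and 134 in WT naive. The groups were apart in KO and overlapped in WT. The log2 fold changes were -0.65 ± 0.24 in KO (adjusted p = 0.160) and -0.39 ± 0.24 in WT (adjusted p = 0.410). It stood at 86.2, 52.6 and 91.4 CPM in samples labelled KO cisplatin AIBP and at 65.9 and 124 CPM in WT cisplatin AIBP, a range that overlapped saline in both genotypes.

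Cd14, a lipopolysaccharide-binding co-receptor, was at 736, 553 and 795 CPM in KO cisplatin saline and at 1456, 1404 and 1357 CPM in WT cisplatin saline. The saline groups did not overlap (695 ± 126 against 1406 ± 50 CPM), with a log2 fold change of -1.02 ± 0.23 for KO against WT (95% interval -1.51 to -0.52; adjusted p = 0.191, edgeR; 0.00196, DESeq2). It was at 918, 1215 and 1375 CPM in KO naive and at 1387, 1393 and 1105 CPM in WT naive, which overlapped. Saline against naive gave -0.75 ± 0.23 in KO (adjusted p = 0.0892, edgeR; 0.0165, DESeq2) and 0.12 ± 0.23 in WT (adjusted p = 0.844), and the difference between these, -0.87 ± 0.33 (95% interval -1.57 to -0.17), did not pass (adjusted p = 0.607). In samples labelled KO cisplatin AIBP Cd14 was at 786, 895 and 1562 CPM, against 1297 and 1229 CPM in WT cisplatin AIBP. Sample 9 set that KO spread, and its 3 libraries lay at 1529, 1564 and 1497 CPM. AIBP against saline in KO gave 0.64 ± 0.23 (adjusted p = 0.706). Summed levels of 12 immediate-early and stress genes were 14982 to 31403 CPM in samples labelled KO cisplatin AIBP, 3127 to 12667 in KO cisplatin saline and 7169 to 35295 in KO naive. The sums were 7967 to 8064 CPM in WT cisplatin AIBP, 8973 to 27511 in WT cisplatin saline and 19103 to 47309 in WT naive. The part of these genes in the Cd14 values was not tested.

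The receptors for bacterial lipopeptides are built from TLR2 with TLR1 or TLR6. Tlr1 was at 111, 129 and 126 CPM in KO cisplatin saline against 87.0, 62.3 and 82.8 in KO naive, and at 80.0, 123 and 104 CPM in WT cisplatin saline against 79.3, 69.8 and 85.5 in WT naive. The KO groups were apart, the only non-overlap upward among the 10 genes in either saline comparison, and the WT groups overlapped. The log2 fold change was 0.66 ± 0.18 in KO (95% interval 0.27 to 1.04; adjusted p = 0.0530, edgeR; 0.0126, DESeq2) and 0.39 ± 0.18 in WT (adjusted p = 0.278). After AIBP, Tlr1 was at 94.5, 96.9 and 84.7 CPM in samples labelled KO cisplatin AIBP, below all of KO cisplatin saline (log2 fold change -0.41 ± 0.18, adjusted p = 0.706). In WT cisplatin AIBP it was at 123 and 132 CPM, above all of WT naive (0.71 ± 0.20, adjusted p = 0.102, edgeR; 0.0191, DESeq2). Tlr2 was at 215 to 273 CPM in KO cisplatin saline against 178 to 368 in KO naive, and at 256 to 300 CPM in WT cisplatin saline against 167 to 268 in WT naive. Its groups overlapped in each of the 9 group comparisons.

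Of the endosomal receptors, Tlr3 binds double-stranded RNA and Tlr7 single-stranded RNA. Tlr3 was at 41.2, 34.5 and 38.5 CPM in KO cisplatin saline against 74.6, 71.0 and 44 in KO naive, and at 31.9, 17.6 and 43.8 CPM in WT cisplatin saline against 56.9, 56.8 and 54.7 in WT naive. In both genotypes the saline samples lay below the naive ones, with log2 fold changes of -0.73 ± 0.33 in KO (adjusted p = 0.255) and -0.85 ± 0.33 in WT (adjusted p = 0.203). Tlr7 was at 326, 203 and 112 CPM in KO cisplatin saline against 210, 184 and 174 in KO naive, and at 102, 91.6 and 135 CPM in WT cisplatin saline against 201, 213 and 149 in WT naive. The WT groups were apart and the KO saline samples lay on both sides of KO naive. The log2 fold change was 0.18 ± 0.31 in KO (adjusted p = 0.835) and -0.78 ± 0.32 in WT (adjusted p = 0.229). The difference between the genotypes, 0.96 ± 0.45 (95% interval 0.005 to 1.91), did not pass (adjusted p = 0.649). The KO spread was between samples and not between libraries: the 3 libraries of KO cisplatin saline 4 lay at 304 to 348 CPM and those of sample 6 at 104 to 118 CPM.

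Tlr13, a receptor for bacterial ribosomal RNA, varied least, with its highest sample 1.74 times its lowest. It was at 233 to 299 CPM in KO cisplatin saline against 171 to 230 CPM in WT cisplatin saline. These groups did not overlap (log2 fold change 0.40 ± 0.16 for KO against WT, adjusted p = 0.510). All WT cisplatin saline samples lay below all WT naive samples (log2 fold change -0.29 ± 0.16, adjusted p = 0.347). KO cisplatin saline overlapped KO naive (0.11 ± 0.16, adjusted p = 0.770). The difference between the genotypes in the cisplatin contrast, 0.40 ± 0.22, did not pass (adjusted p = 0.715). Tlr9, a receptor for unmethylated CpG DNA, was at 0.518 to 22.7 CPM over the 17 samples, a 43.8-fold range. KO cisplatin saline 5 was the low one, and its 3 libraries lay at 0.292 to 0.655 CPM. The 3 libraries of WT cisplatin AIBP 7 lay at 7.28, 42.7 and 4.53 CPM, so 1 library set that sample's level. Intervals for Tlr9 were wide in each comparison, such as -2.45 to 1.14 on the log2 scale for KO cisplatin saline against KO naive, and a change of several fold was not detectable.

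**Figure D3:**
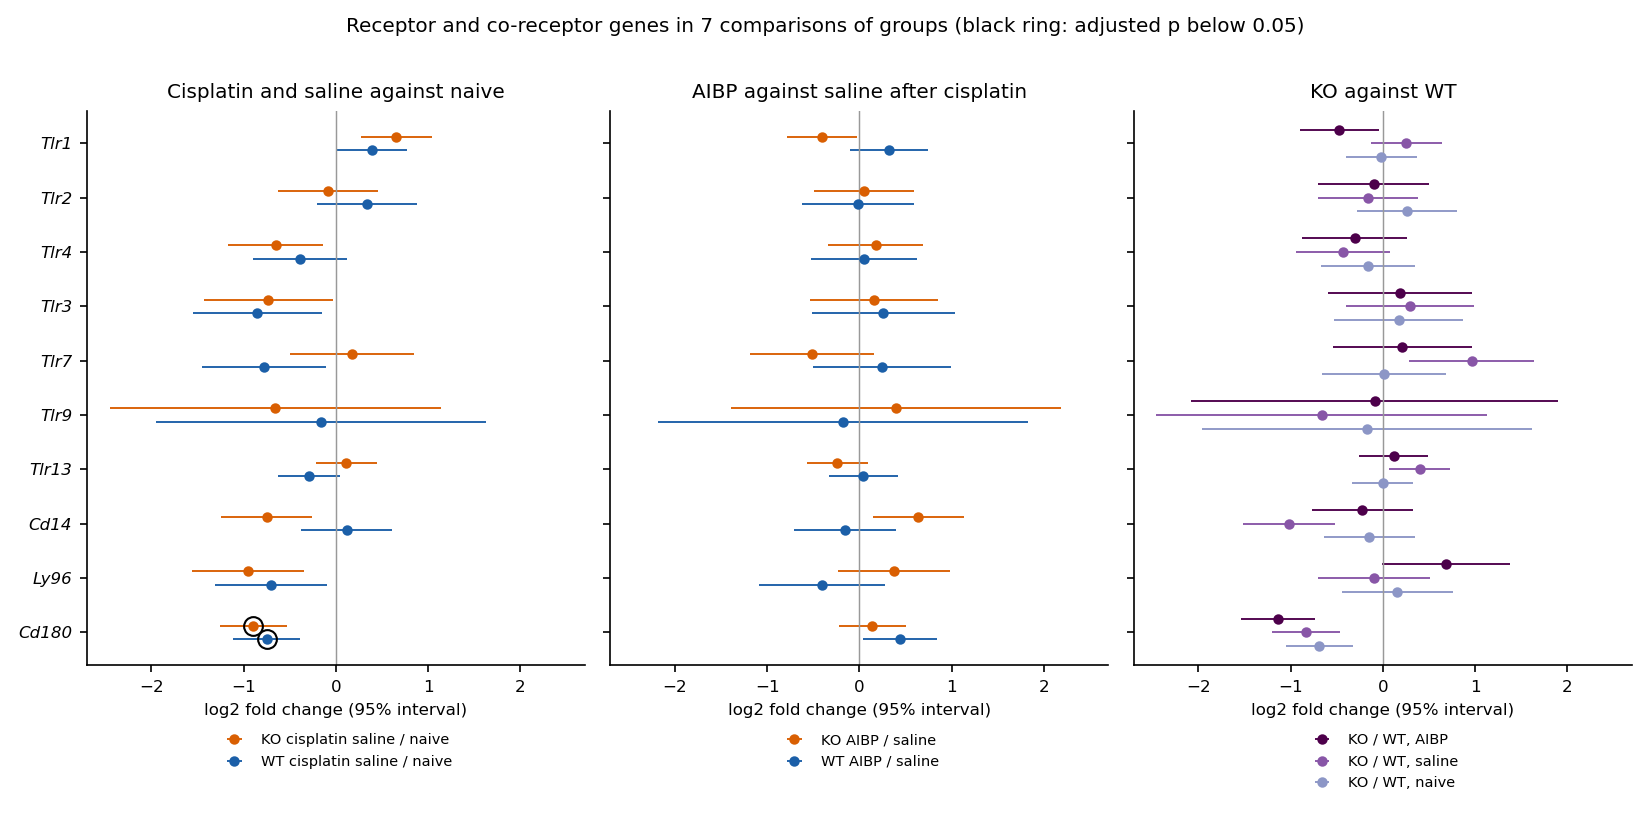
Log2 fold changes (x axis) with 95% intervals for the 10 genes (rows) in 7 of the 9 group comparisons, from edgeR: cisplatin saline against naive (left), AIBP against saline (middle) and KO against WT (right). Black rings mark an adjusted p below 0.05, which in these panels only Cd180 in KO and in WT cisplatin saline reached, and the intervals of Tlr9 are the widest.

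Over the 9 group comparisons, 3 of 90 pairs of a gene and a comparison passed the test. All 3 were Cd180 against naive mice, in KO cisplatin saline, WT cisplatin saline and samples labelled KO cisplatin AIBP. The pairs in KO used the same KO naive samples. In these comparisons 903, 595 and 549 of the 20461 genes tested passed, and in the other group comparisons 0 to 256 passed. In KO cisplatin saline against naive, 5 of the 10 genes were lower and 1 higher with no overlap, where 11.5% of all genes were lower and 23.5% apart in either direction, and the median log2 fold change was -0.65 against -0.04 over all genes. In WT cisplatin saline against naive, 5 were lower and none higher with no overlap, where 10.7% of all genes were lower and 22.8% apart in either direction, with a median of -0.34 against -0.01. Among genes averaging 10 CPM or more the shares lower with no overlap were 16.9% in KO and 17.7% in WT. For samples labelled KO cisplatin AIBP against naive, 3 were lower with no overlap (9.77% of all genes). For WT cisplatin AIBP against naive 5 were lower (Tlr3, Tlr7, Tlr13, Ly96, Cd180) and 1 higher (Tlr1) with no overlap (33.3% of all genes were apart in either direction). There edgeR called none (1.25% of all genes passed in either direction). At an unadjusted p below 0.05 there were 2 of the 10, against 2933 of the 20461 genes tested. DESeq2 called 2 of the 10. Comparisons with naive share the naive samples of their genotype.

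Between AIBP and saline no gene of the 10 passed with edgeR or DESeq2 in either genotype. At an unadjusted p below 0.05 there were 2 in KO and 1 in WT, against 1354 and 759 of the 20461 genes tested. Of all genes tested 0.00977% passed in KO and 0% in WT. With no overlap, Tlr1 was lower in KO (4.43% of all genes), while in WT Cd180 was higher and Cd14 lower (9.10% and 9.14%). Between KO and WT, edgeR called none of the 10 after AIBP, after saline or in naive mice. Of all genes, 0%, 0.0440% and 0.00489% passed with edgeR. At an unadjusted p below 0.05 there were 2, 4 and 1 of the 10, against 1299, 1837 and 1220 of the 20461 genes tested. DESeq2 called 1, 2 and 1 of the 10. After saline 3 genes were lower (Tlr4, Cd14, Cd180) and 1 higher (Tlr13) in KO with no overlap, against 6.40% and 6.10% of all genes. After AIBP 2 were lower (Tlr1, Cd180) and 1 higher (Ly96), against 11.4% and 10.8%. The tests of a difference between genotypes in the cisplatin and in the AIBP contrast called none with edgeR or DESeq2. With edgeR 0% of all genes passed. At an unadjusted p below 0.05 there were 2 in each, against 1561 and 1285 of the 20461 genes tested.

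Genes that act with these receptors were described in 7 lists of 63 genes, of which 62 were tested. In KO cisplatin saline against naive, none passed as higher and 5 as lower, where 1.99% of all genes passed as lower. In WT cisplatin saline against naive 2 passed as higher and 2 as lower, where 1.95% of all genes passed as higher and 0.953% as lower. The median log2 fold change of the lists was -0.37 in KO and -0.26 in WT. At an unadjusted p below 0.05 there were 17 in KO and 16 in WT, against 3711 and 3606 of the 20461 genes tested. Of the 62 genes, DESeq2 called 13 and 12. Unc93b1, the chaperone that carries nucleic acid-sensing receptors to endosomes, fell in both genotypes. It was at 1959, 1276 and 1466 CPM in KO cisplatin saline against 2221, 2620 and 2943 in KO naive (log2 fold change -0.73 ± 0.16, adjusted p = 0.0207), and at 1624, 1262 and 1555 CPM in WT cisplatin saline against 2579, 2891 and 2645 in WT naive (-0.87 ± 0.16, adjusted p = 0.0119). No saline sample reached the lowest naive sample of its genotype. The WT call was lost without WT cisplatin saline 5 (adjusted p = 0.0754), and the KO call was kept in 2 of 6 fits that left out 1 sample (lost without KO naive 2 or 3 or KO cisplatin saline 5 or 6).

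Ly86, which encodes the partner of CD180, rose in WT cisplatin saline while Cd180 fell. It was at 1982, 2055 and 2165 CPM in KO cisplatin saline against 1593, 1776 and 2121 in KO naive, and at 2586, 2258 and 3120 CPM in WT cisplatin saline against 1891, 1572 and 1580 in WT naive. The KO groups overlapped (log2 fold change 0.18 ± 0.15, adjusted p = 0.571) and the WT groups did not (0.66 ± 0.15, adjusted p = 0.0270). In samples labelled KO cisplatin AIBP Ly86 was at 2499, 2224 and 2667 CPM, above all of KO naive, and did not pass (0.43 ± 0.15, adjusted p = 0.156). In WT cisplatin AIBP it was at 2859 and 3230 CPM (0.86 ± 0.16 against naive, adjusted p = 0.0217). The WT saline call was lost without WT naive 2 or 3, without WT cisplatin saline 6, or without saline 5 and 6 together, and the WT AIBP call was lost without any 1 of its 5 samples. Hsp90b1, which encodes gp96, a chaperone that folds most Toll-like receptors, rose in WT cisplatin saline (1251 ± 220 against 702 ± 103 CPM; log2 fold change 0.83 ± 0.15, adjusted p = 0.00940). That call was lost without WT cisplatin saline 5 (adjusted p = 0.0572). In KO cisplatin saline it was higher with no overlap and did not pass (0.44 ± 0.15, adjusted p = 0.124).

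Of the signalling genes, 0 of 5 adaptors (Myd88, Tirap, Ticam1, Ticam2, Sarm1) passed in either saline comparison with edgeR or DESeq2, and 0 had an unadjusted p below 0.05. Irak2, a kinase downstream of MyD88, fell in WT cisplatin saline to 71.3 ± 15 against 154 ± 12 CPM (log2 fold change -1.11 ± 0.25, adjusted p = 0.0276), a call kept only without WT cisplatin saline 4 among the fits that left out 1 sample. In KO cisplatin saline Nfkb1 and Relb, of the NF-kB family, fell by log2 fold changes of -1.38 ± 0.31 (73.1 ± 22 against 190 ± 5.8 CPM, adjusted p = 0.0193) and -1.29 ± 0.34 (adjusted p = 0.0482). Socs1, an inhibitor of cytokine and Toll-like receptor signalling, fell to 3.20 CPM against 16.2 CPM in KO naive (adjusted p = 0.0285). Tlr12, a receptor for profilin of parasites, fell to 12.9 ± 7.3 CPM in KO cisplatin saline against 51.3 ± 17 CPM in KO naive (-1.99 ± 0.50, adjusted p = 0.0362). Nfkb1 was lost without KO naive 1 or 2 or KO cisplatin saline 4, and Tlr12 without KO naive 1 or 2 or KO cisplatin saline 4 or 6. Relb and Socs1 were each kept in 1 of 6 such fits, the fit without KO naive 1. Of the 15 cytokines, chemokines and enzymes that the pathway induces, such as Tnf, Il1b and Cxcl10, edgeR called 0 in both saline comparisons, with 1 at an unadjusted p below 0.05 in KO and 5 in WT, and DESeq2 called 1 and 5. Their median log2 fold change was -0.42 in KO and 1.61 in WT. For AIBP against saline it was 1.58 in KO and -1.48 in WT.

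In samples labelled KO cisplatin AIBP against KO naive, 2 of the 62 genes passed as higher and 4 as lower, where 1.81% and 0.870% of all genes passed. Hsp90b1 (0.80 ± 0.15, adjusted p = 0.0108) and the chemokine gene Ccl2 (374 against 94.7 CPM, adjusted p = 0.0384) were higher. Unc93b1 (1558 against 2595 CPM, adjusted p = 0.0282), Nfkb1 (adjusted p = 0.0434), Chuk, which encodes an IkB kinase (-0.80, adjusted p = 0.0216), and Nfkbie, which encodes an NF-kB inhibitor (adjusted p = 0.0469), were lower. Of 6 fits that each left out 1 sample, the call was kept in 4 for Hsp90b1 (lost without KO naive 2 or AIBP 8), 2 for Chuk (lost without KO naive 1 or 3 or AIBP 8 or 9), 1 each for Unc93b1 (kept only without KO naive 1), Nfkb1 and Ccl2 (kept only without AIBP 7), and none for Nfkbie. In WT cisplatin AIBP against naive Hsp90b1 also passed as higher (0.99 ± 0.16, adjusted p = 0.0118; lost without WT naive 2 or AIBP 7 or 9). None of the 62 passed with edgeR between AIBP and saline in KO or WT. At an unadjusted p below 0.05 there were 13 and 7, against 1354 and 759 of the 20461 genes tested. DESeq2 called 3 and 0. Between KO and WT none passed with edgeR after AIBP, after saline or in naive mice. There 9, 13 and 5 had an unadjusted p below 0.05, against 1299, 1837 and 1220 of all genes. DESeq2 called 0, 2 and 0. For the difference between genotypes in the AIBP contrast edgeR called none and DESeq2 called 3. There 11 of the 62 had an unadjusted p below 0.05, against 1285 of all genes. Of these 11, 9 were among the 15 cytokines, chemokines and enzymes.

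The genes whose levels over the 17 samples were most like those of Cd180 were Camk1, Nrros and Tmem206. The root mean square difference of log2 CPM, each centred on its own mean, was 0.21 for Camk1, 0.22 for Nrros and 0.25 for Tmem206, against a median of 0.72 over the 8220 genes compared, which averaged 10 CPM or more and left out gene models, clones and pseudogenes, and Cd180 itself varied with an SD of 0.59 on that scale.

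Technical replicates differed more for some genes than for others. Between the 3 libraries of a sample the SD of log2(CPM + 0.5) was 1.29 for Tlr9, 0.51 for Ly96, 0.45 for Tlr1, 0.33 for Cd180 and Cd14, 0.31 for Tlr7 and 0.23 for Tlr2. The lowest library of Cd180 was of KO cisplatin saline 5, whose 3 libraries lay at 35.4, 62.1 and 71.7 CPM. The highest was of WT naive 2, whose 3 libraries lay at 151, 253 and 223 CPM. In WT cisplatin saline 4 the libraries of Cd14 lay at 720, 1989 and 2038 CPM.

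**Figure D4:**
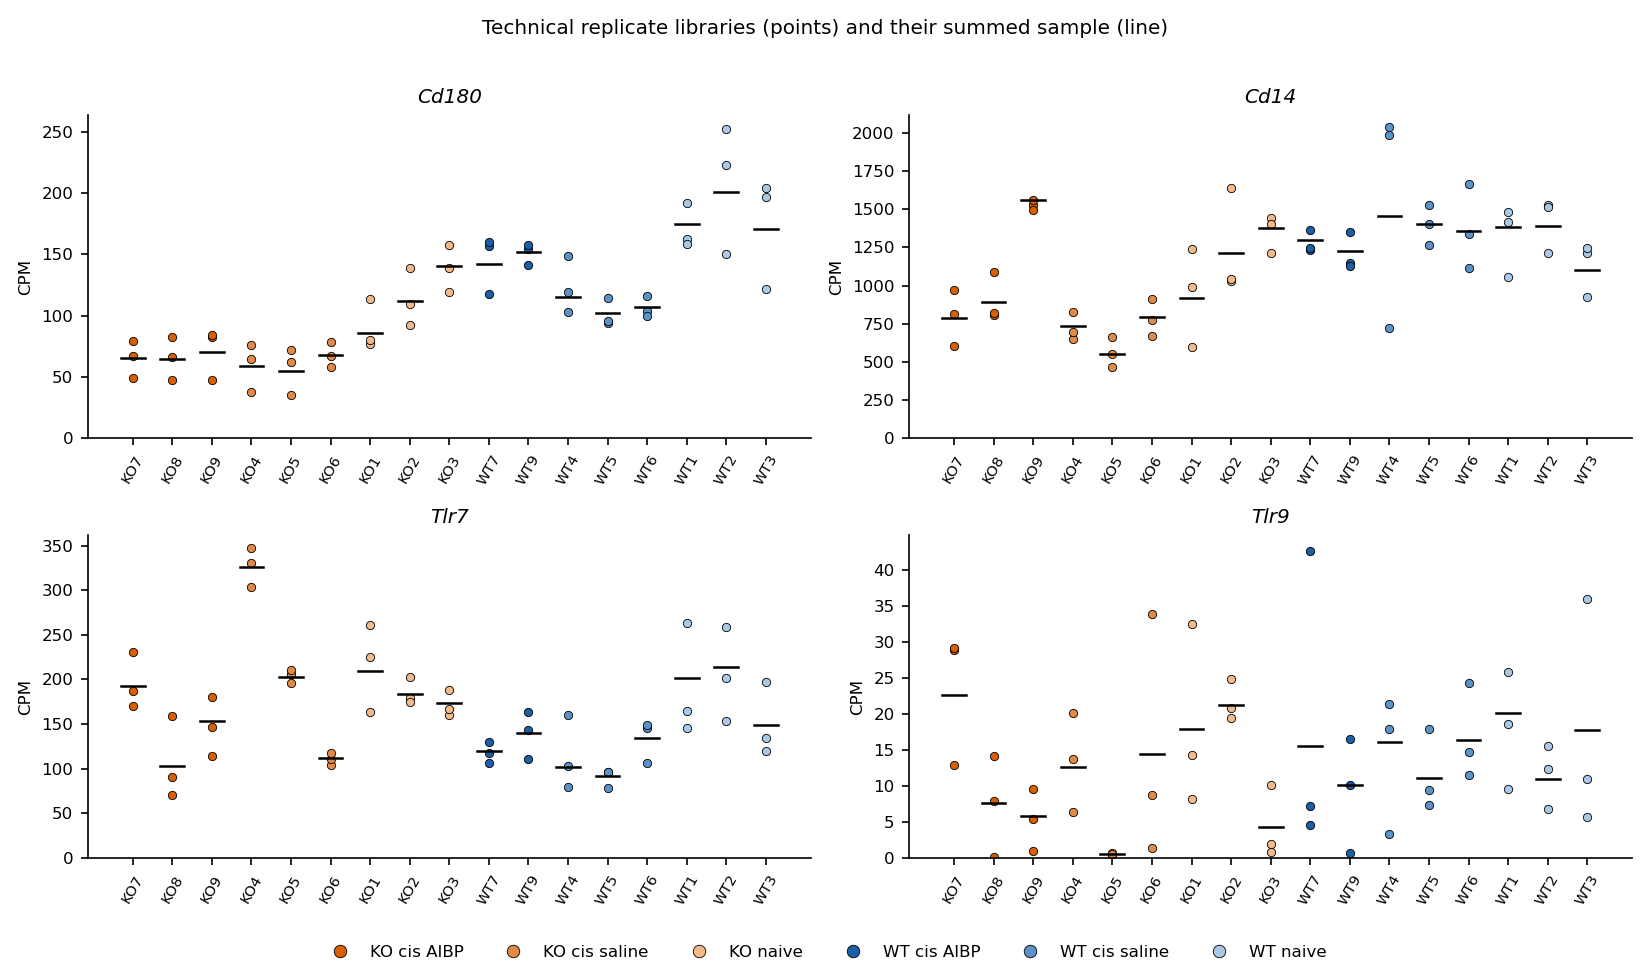
Level (y axis, CPM) of Cd180, Cd14, Tlr7 and Tlr9 in the single libraries of each numbered sample (x axis, by group); points are libraries and lines are the level of the summed sample. The libraries of KO cisplatin saline 4 lie together for Tlr7, at 304 to 348 CPM, while those of WT cisplatin AIBP 7 for Tlr9 spread from 4.53 to 42.7 CPM.

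Positions on GRCm38 (GENCODE release M21) were chromosome 5, 64924679 to 64933563 for Tlr1, chromosome 3, 83836272 to 83841767 for Tlr2, chromosome 8, 45395665 to 45411080 for Tlr3, and chromosome 4, 66827584 to 66930284 for Tlr4. Tlr7 and Tlr13 lie on chromosome X, at 167304929 to 167330558 and 106143204 to 106160493, and Tlr9 on chromosome 9, at 106222598 to 106226883. Cd14 lies on chromosome 18, 36725067 to 36726798, Ly96 on chromosome 1, 16688051 to 16709611, and Cd180 on chromosome 13, 102693558 to 102739629 (ENSMUSG00000021624 in the authors' tables). Exons of Tlr3 share 381 bases with an antisense gene whose level was at most 0.032 CPM.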

How the data were processed

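The authors deposited raw counts per gene for 102 runs and a table of signal, which is the raw count divided by 1 size factor per run (0.437 to 1.62, checked to a relative tolerance of 1e-09). Per the submitters' processing notes, the tools were STAR 2.6.0a, DESeq2, bcl2fastq, FastQC 0.11.17 and MultiQC 1.7, and the build was GRCm38; the counting tool and strand setting are not given in the sources used here. Per the labels' protocols, sorted cells were lysed, oligo(dT)-primed cDNA was amplified by PCR with no molecular identifiers stated, and 1 ng of cDNA entered Nextera XT.

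Runs were summed to 17 numbered samples, the units of each test. Nothing says that these are separate animals, so p-values measure only the spread between them, which may be technical. edgeR 4.0.16 (R 4.3.3) was used with TMM scaling (0.885 to 1.11), filterByExpr by group (20461 genes), group means over all samples (biological coefficient of variation 0.922 with 11 residual degrees of freedom), the quasi-likelihood test (two-sided) and Benjamini-Hochberg adjustment over all genes at 0.05. Passed, called, rose and fell refer to this test, and each adjusted p is from edgeR unless DESeq2 1.42.0 is named. Shares and counts of all genes passing a test are from edgeR, and none is given for DESeq2. CPM uses TMM-scaled totals, ± is an SD for levels and an SE for log2 fold changes, and exon length is from GENCODE M21. Promoters are from RefSeq.

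The members, lists and rules were chosen with earlier results of these data known. All 10 members were tested in each comparison, and the text gives values for only part of these tests. Up to 4 called genes of the smallest p per list and the 3 genes most like a called member were named. The tests were tried on simulated data. Alternatives were other scalings, DESeq2, limma-voom (limma 3.58.1), other filters, fewer groups, and fits without each sample or technical replicate. Same-numbered KO and WT samples did not deviate together (r -0.154 to 0.193).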

Additional observations from a re-analysis of the deposited data

How the results depend on the processing

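Over the 110 pairs of a gene and a comparison (interactions included), 2030 values under other settings were compared with the main ones: 1972 kept their side of the threshold, 23 lost a call, 35 gained one and no called value reversed. Among values that were not called, 127 changed sign, 66 of them in fits without 1 numbered sample. The number of the 10 genes called in KO cisplatin saline against naive (1, Cd180) was 2 with library totals only, 4 with DESeq2 (Tlr1, Cd14, Ly96 and Cd180), 3 with limma-voom, 3 with a filter of 10 CPM in 2 samples, 0 with only the groups compared, and 1 without each sample in turn. Tlr1 was among the genes added in each of the 4 higher counts. Without KO cisplatin saline 5 Ly96 was called in place of Cd180, and without technical replicate 3 Cd14 was. In WT cisplatin saline against naive (1) it was 0 with no filter, with only the groups compared and without WT cisplatin saline 5 and 6, and 0 to 1 without each sample or technical replicate. In samples labelled KO cisplatin AIBP against naive (1) it was 0 with no filter and with only the groups compared, 0 to 1 without each sample and 0 without each technical replicate. In WT cisplatin AIBP against naive (0) it was 2 with DESeq2 and 1 with the stricter filter. For KO against WT (0 each) it was 1 after AIBP with DESeq2 and with limma-voom, 2 after saline with DESeq2 and with the stricter filter, and 1 in naive mice with DESeq2. Cd180 kept a negative log2 fold change in all settings run: -1.06 to -0.70 in KO and -0.85 to -0.61 in WT for cisplatin saline against naive, -0.92 to -0.57 for samples labelled KO cisplatin AIBP against naive, and -1.33 to -1.0 after AIBP, -1.01 to -0.76 after saline and -0.88 to -0.53 in naive mice for KO against WT. It passed in 14 of 17, 8 of 18, 7 of 17, 3 of 17, 3 of 19 and 2 of 18 of them. The cause of these changes was not tested. With the sample number as a replicate block, 0 members were called in each KO against WT comparison. With technical replicates as a replicate block and libraries as units, which are not independent, so that p-values are too small, 6 were called in KO and 3 in WT cisplatin saline against naive, 2 in WT cisplatin AIBP against naive, 1, 3 and 1 for KO against WT after AIBP, after saline and in naive mice, and 1 (Cd14) for the genotype difference in the cisplatin contrast.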

Other observations

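Of the Toll-like receptors outside the 10 genes, Tlr6, a partner of TLR2, was at 22.4 to 62.3 CPM over the 17 samples, and Tlr12 was at 5.68 to 64.5 CPM. Tlr5, the flagellin receptor, was at 0.0548 to 9.79 CPM, Tlr8 at 0 to 4.17 CPM and Tlr11 at 0 to 2.08 CPM.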
